A study of Mus musculus with 9 samples.

Results

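Transthyretin (Ttr) is the most abundant secreted product of the choroid plexus epithelium, and its transcripts were not found in any control cortex of this experiment although every mutant cortex contained them. The present account follows Ttr together with 7 other genes of this epithelium, namely Otx2, Folr1, Kcne2, Clic6, Htr2c, Aqp1 and Kl, and asks whether they share that pattern. These 8 members were listed by symbol and matched to Ensembl identifiers, and all 8 were found among the 57010 genes of the count table. Poly(A) RNA was sequenced from microdissected cortices of single mouse embryos at E12.5, with one stranded library per embryo and 3 embryos per genotype. In Cnot3 cKO embryos (Emx1-Cre;Cnot3 lox/lox), Cnot3, a subunit of the CCR4-NOT deadenylase complex, is removed by Emx1-Cre. In dcKO embryos, which are also Trp53 lox/lox, the same Cre removes Trp53, the gene for p53, in addition to Cnot3. Control (Ctrl) embryos carry the genotype label WT, and their Cre and floxed alleles are not given in the sources used here. Emx1-Cre acts in radial glial cells (RGCs) of the dorsal telencephalon and in their progeny, so that cells of other origin in the same tissue keep both genes.

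The choroid plexus is a vascularised epithelial sheet in each brain ventricle that secretes cerebrospinal fluid. In the telencephalon it arises from the dorsal midline, next to the cortical hem, a signalling centre of the medial cortex that secretes Wnt and BMP proteins. Otx2 is a homeodomain transcription factor needed to form and maintain this epithelium. Ttr and Folr1 carry cargo across it, Ttr as the carrier of thyroid hormone and of retinol-binding protein in the fluid, and Folr1 as the folate receptor that moves folate into the ventricle. Kcne2 is a regulatory subunit of potassium channels, Clic6 belongs to the chloride intracellular channel family, and Aqp1 is a water channel of the apical membrane that is also abundant in red blood cells and in some endothelia. Htr2c is a serotonin receptor, and Kl encodes klotho, a membrane protein that acts as co-receptor for FGF23. Htr2c is also expressed by neurons, and mature choroid plexus is a main site of both Htr2c and Kl in the brain.

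Positions of the members are given from the GENCODE M21 annotation of GRCm38, which is not the mm39 build to which the authors aligned, and identifiers with the version of the count table. Otx2 (ENSMUSG00000021848.17) lies on the minus strand of chromosome 14 from 48657677 to 48673819. Folr1 (ENSMUSG00000001827.13) lies on the minus strand of chromosome 7 from 101858331 to 101870788. Kcne2 (ENSMUSG00000039672.13, chromosome 16, 92292389 to 92298129) and Clic6 (ENSMUSG00000022949.10, chromosome 16, 92485736 to 92541243) are on the plus strand of the same chromosome with 187606 bases between them. Htr2c (ENSMUSG00000041380.14) spans 146962513 to 147197277 of the X chromosome, Aqp1 (ENSMUSG00000004655.6) spans 55336432 to 55348555 of chromosome 6, and Kl (ENSMUSG00000058488.8) spans 150952607 to 150993817 of chromosome 5, all on the plus strand. Otx2 overlaps the antisense gene Otx2os1, and Folr1 overlaps Anapc15 on the opposite strand. Clic6 overlaps 2410124H12Rik on its own strand. The strand setting of the counting is not given in the sources used here, so reads of Otx2 and Folr1 cannot be told apart from those of these partners where the genes overlap. Otx2os1 itself was counted at 0 CPM in every Ctrl and at no more than 0.37 CPM in a mutant.

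OTX proteins bind the hexamer TAATCC, which reads GGATTA on the other strand, and this motif was searched in the RefSeq promoter windows of the members, from 250 bases before to 50 bases after each annotated start (GRCm38.p6). A window was given for 5 members, Otx2 itself, Kcne2, Htr2c, Aqp1 and Kl, with 9 windows in all. The hexamer was found on either strand in 1 of these 9 windows, one of the 4 of Otx2, against 7.06% of all 32851 windows. That Otx2 window is shown with the match in capitals, since Otx2 is the only transcription factor among the members. The window at the upstream start of Kcne2, a channel gene whose reads are described further on, is shown for comparison, without a match. A match describes letters only, and binding was not measured here.
Otx2, chr14:48665060-48665359, minus strand: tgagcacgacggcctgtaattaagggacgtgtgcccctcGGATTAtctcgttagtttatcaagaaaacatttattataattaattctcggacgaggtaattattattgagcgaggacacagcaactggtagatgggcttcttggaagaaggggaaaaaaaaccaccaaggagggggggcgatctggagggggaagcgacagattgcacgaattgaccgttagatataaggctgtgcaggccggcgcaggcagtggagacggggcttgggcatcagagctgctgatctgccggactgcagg
Kcne2, chr16:92292139-92292438, plus strand: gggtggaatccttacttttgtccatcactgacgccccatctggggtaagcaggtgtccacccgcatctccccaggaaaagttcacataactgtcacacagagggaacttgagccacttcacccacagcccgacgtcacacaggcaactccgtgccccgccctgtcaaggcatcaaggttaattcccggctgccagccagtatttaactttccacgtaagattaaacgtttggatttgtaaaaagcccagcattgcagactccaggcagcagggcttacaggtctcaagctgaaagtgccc

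Total counts ranged from 21193798 to 45073349 per embryo, and levels are given as CPM, the counts scaled by library size with TMM factors. The targeted genes followed the labels with one exception. Cnot3 was at 99.8 to 119.1 CPM in Ctrl and at 7.22 to 18.8 CPM in 5 mutants, whereas dcKO replicate 2 had 48.0 CPM. Trp53 was likewise at 14.9 and 20.3 CPM in dcKO replicates 1 and 3 and at 110 CPM in dcKO replicate 2, against 218 to 256 CPM in Ctrl. The same library was the only one with Gsx2 reads (96) and Nkx2-1 reads (18), both markers of the subpallium, which Emx1-Cre does not target. Among other genes of the subpallial list, Dlx1 (47 reads) and Dlx2 (88) were also highest there, whereas Lhx6 was lowest there (0.687 CPM against 0.851 to 4.41 CPM elsewhere), Dlx5 had 1 read and Lhx8 none. Ctrl replicate 3 had 17 reads of Rspo2, a gene of the cortical hem, against 183 and 249 in the other Ctrl embryos. Within dcKO, replicate 3 stood apart in Emx1, a factor of the cortical progenitors, with 79.6 CPM against 7.82 and 17.7 CPM in the other dcKO embryos and 44.5 to 121.8 CPM in Ctrl. These values were picked after the libraries were examined. Calls that changed without dcKO replicate 2, dcKO replicate 3 or Ctrl replicate 3 are given below, where refits of the marker lists were chosen after the data were seen. Some embryos of different genotype share the number in their code, namely Ctrl replicate 1 and cKO replicate 2, Ctrl replicate 2 and cKO replicate 3, and Ctrl replicate 3 and dcKO replicate 3. What this number stands for is not given in the sources used here.

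Ttr was absent from the controls and present in every mutant. It had 0 reads in each of the 3 Ctrl embryos. In cKO it had 162, 292 and 870 reads in replicates 1, 2 and 3, or 5.85, 10.7 and 32.5 CPM. In dcKO it had 2050, 134 and 149 reads, or 56.1, 3.41 and 6.07 CPM. The lowest mutant, dcKO replicate 2, thus still had 134 reads against none in any control, and the highest, dcKO replicate 1, had 16.4 times its CPM. In the 3 pairs of embryos with the same code number, the control had 0 reads of Ttr and the mutant 292, 870 and 149. Set against a floor of 3 reads over the whole control group, Ttr was at least 386-fold higher in cKO and at least 553-fold higher in dcKO. These bounds take the mutant reads as counted and rest on single embryos, since without cKO replicate 3 the first was 197-fold and without dcKO replicate 1 the second was 105.6-fold. Ttr was put forward for its absence from controls, so these values are a description and carry no test. Ttr (ENSMUSG00000061808.5, plus strand of chromosome 18 from 20665280 to 20674321) was 1 of 14 genes of the table without a read in Ctrl and with reads in all 6 mutants. Among them it had the most reads, 3657 in the 6 mutants together, followed by Dynlrb2, a dynein light chain, with 400. In whole tissue, fewer cells of a type and less RNA per cell cannot be told apart, for Ttr as for every gene that follows.

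**Figure D1:**
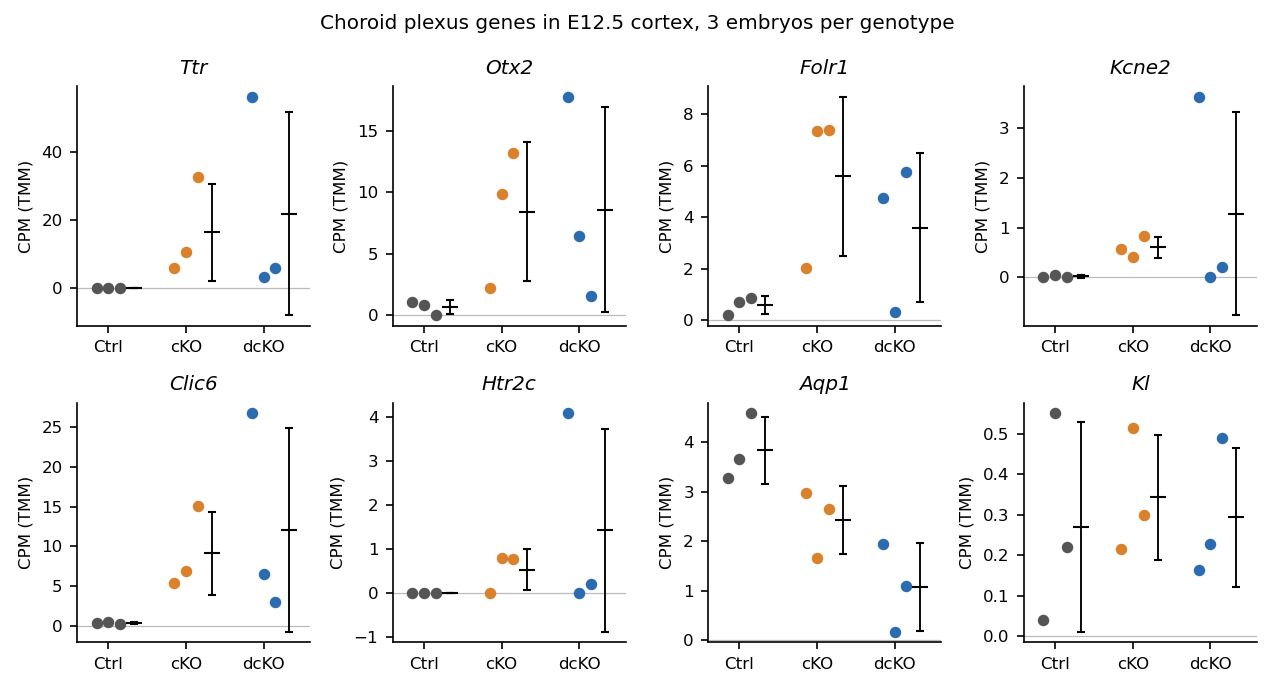
Levels of the 8 choroid plexus genes in CPM (reads scaled by TMM library size, linear axes that differ between panels). Dots are single embryos in replicate order, and the bar beside them is the mean with the SD of 3 embryos. Ttr, Otx2 and Clic6 lie above all controls in all 6 mutants, Aqp1 lies below them, and Kl overlaps.

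Otx2, the transcription factor of the group, was above every control in all 6 mutants. Its reads numbered 27, 17 and 1 in Ctrl, 61, 269 and 354 in cKO and 649, 255 and 38 in dcKO. As CPM these were 1.12, 0.851 and 0.0366 in Ctrl, 2.20, 9.88 and 13.2 in cKO and 17.7, 6.49 and 1.55 in dcKO. The groups did not overlap, although dcKO replicate 3 and cKO replicate 1 lay close to the highest control. Ctrl replicate 3, with its single Otx2 read, is the control that was low in hem genes. Over both mutants the log2 fold change was 3.69 ± 1.05 (SE), with an edgeR adjusted p of 0.0536 and an exact two-sided permutation p of 0.0238 (6 against 3 embryos, the smallest such p possible). Otx2 therefore narrowly missed the threshold of the edgeR test, while DESeq2 gave an adjusted p of 3.42e-04. Without Ctrl replicate 3 the log2 fold change was 3.10 with an edgeR adjusted p of 0.129, without dcKO replicate 2 it was 3.76 (0.0365), and without dcKO replicate 3 it was 3.91 (0.00637).

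Clic6 was above every control in all 6 mutants and had the lowest edgeR adjusted p of the tested members. It had 10, 11 and 8 reads in Ctrl, 151, 188 and 403 in cKO and 975, 255 and 76 in dcKO. Its level was 0.414, 0.550 and 0.293 CPM in Ctrl, 5.46, 6.90 and 15.0 CPM in cKO and 26.7, 6.49 and 3.10 CPM in dcKO. Even the lowest mutant, dcKO replicate 3, was several-fold above the highest control. The log2 fold change over both mutants was 4.65 ± 0.81 (SE), with an edgeR adjusted p of 0.0288, an exact permutation p of 0.0238 and a DESeq2 adjusted p of 4.18e-09. Its 29 reads in Ctrl were 1 short of the 30 that the filter's average of 10 reads per embryo asks of 3 embryos, so Clic6 was tested because of its reads in mutants, and these p-values carry that limit. In cKO alone it was 4.45 ± 0.84 and in dcKO alone 4.86 ± 0.85, each with an edgeR adjusted p of 0.0597. The call over both mutants was lost when any single Ctrl or cKO embryo was left out, with adjusted p between 0.0775 and 0.163 and log2 fold changes between 4.34 and 4.88. In each of those 6 fits edgeR called no gene of the whole table in this comparison.

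Folr1, the folate receptor, was above all controls in 5 of 6 mutants. It had 5, 14 and 24 reads in Ctrl, 56, 200 and 198 in cKO and 173, 13 and 141 in dcKO. The exception was dcKO replicate 2, whose 0.331 CPM fell within the Ctrl range of 0.207 to 0.879 CPM although the same embryo was above the controls for Otx2 and Clic6. The log2 fold change over both mutants was 2.90 ± 0.90 (SE), with an edgeR adjusted p of 0.0666 and an exact permutation p of 0.0714. Without dcKO replicate 2 all other mutants lay at or above 2.02 CPM, and the log2 fold change was 3.16 with an edgeR adjusted p of 0.00808. Without dcKO replicate 3 it was 2.62 (edgeR adjusted p of 0.0401), and DESeq2 with all embryos gave an adjusted p of 0.00250. In each edgeR fit without a Ctrl or a cKO embryo, Ctrl replicate 3 among them, neither Folr1 nor any other gene was called over both mutants.

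Kcne2 and Htr2c were near or at 0 in controls and were carried mainly by 1 embryo in the mutants. Kcne2, the potassium channel subunit, had 0, 1 and 0 reads in Ctrl, 16, 11 and 22 in cKO and 133, 0 and 5 in dcKO. Its ratio to Ctrl was 42.8 in cKO (95% counting interval 7.34 to 1726) and 98.2 in dcKO (17.3 to 3907), wide intervals that rest on a single control read. Such an interval pools the reads of a genotype and covers counting error only, not the spread between embryos. Without dcKO replicate 1, which held 133 of the 138 dcKO reads, the ratio in dcKO was 5.60 (0.626 to 265). The edgeR adjusted p was 0.167 in cKO, 0.105 in dcKO and 0.0907 over both mutants, and the exact permutation p over both was 0.0952. Htr2c, the serotonin receptor, had 0 reads in all 3 Ctrl embryos, 0, 22 and 21 in cKO and 149, 0 and 5 in dcKO. It was at least 12.53-fold higher in cKO and at least 36.5-fold higher in dcKO against the floor of 3 reads over the control group, but without dcKO replicate 1 the latter bound was 1.87-fold. Its edgeR adjusted p over both mutants was 0.133 and its exact permutation p 0.238. The highest embryo for both genes was dcKO replicate 1, which also had the most Ttr, and neither had a read in dcKO replicate 2. Htr2c is on the X chromosome, and Xist, the RNA that marks an inactive X, had reads in 4 of the embryos (Ctrl replicates 2 and 3, cKO replicate 1 and dcKO replicate 2). Both mutants with Xist reads had 0 Htr2c reads and all 4 mutants without them had some, while Ctrl replicate 1 had neither. The mutants with Xist reads were also the lowest in Ttr (5.85 and 3.41 CPM), so a split by Xist and a split by Ttr level coincide here. The part of the X status in the Htr2c values was not tested.

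Aqp1 differed from the members described so far, since it was lower in the mutants. It had 79, 73 and 125 reads in Ctrl, 82, 45 and 71 in cKO and 71, 7 and 27 in dcKO. Its level was 3.27, 3.65 and 4.58 CPM in Ctrl, 2.96, 1.65 and 2.65 CPM in cKO and 1.94, 0.178 and 1.10 CPM in dcKO. Every mutant lay below every control, which gave an exact permutation p of 0.0238 over both mutants, but the log2 fold change of -1.25 ± 0.55 (SE) had an edgeR adjusted p of 0.163. In dcKO alone the log2 fold change was -1.84 ± 0.68, with an edgeR adjusted p of 0.131. Red blood cells and endothelium also contain Aqp1, and the summed level of 9 red blood cell genes was 7815 to 11567 CPM in Ctrl, 9412 to 14365 CPM in cKO and 4931 to 6683 CPM in dcKO. The sum of 8 endothelial genes was 247 to 326 CPM in Ctrl, 223 to 319 CPM in cKO and 149.97 to 161 CPM in dcKO. Both sums were thus lowest in dcKO, as was Aqp1, but in cKO, where Aqp1 was also below all controls, they overlapped with Ctrl. Their part in the Aqp1 values was not tested.

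Kl was barely detected and showed no difference that these counts could resolve. It had 1, 11 and 6 reads in Ctrl, 6, 14 and 8 in cKO and 6, 9 and 12 in dcKO, a total of 73 reads. This was under the minimum of 90 reads summed over the 9 embryos that a gene needed for the test. The genotypes overlapped, with means of 0.271 ± 0.258, 0.343 ± 0.154 and 0.294 ± 0.172 CPM (SD, n = 3) in Ctrl, cKO and dcKO. The exact permutation p was 0.7 for cKO and 0.8 for dcKO, in a design of 3 against 3 embryos that cannot give less than 0.1. Without the filter, the log2 fold change over both mutants was 0.20 ± 1.14 (SE).

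Levels of different members can be compared only per length. As RPKM over the annotated exons, the highest member in Ctrl was Aqp1 with 1.46 ± 0.256 (SD, n = 3), followed by Folr1 with 0.259 ± 0.152, Otx2 with 0.158 ± 0.133 and Clic6 with 0.107 ± 0.0329. From Folr1 on, neighbours in this order lay within 1 SD of each other. In cKO Ttr was highest with 13.8 ± 12.0 RPKM, followed by Folr1 with 2.43 ± 1.34, Clic6 with 2.33 ± 1.32 and Otx2 with 2.00 ± 1.34, again within 1 SD of their neighbours. In dcKO Ttr reached 18.4 ± 25.0 RPKM and Clic6 3.09 ± 3.25 RPKM, where the SD above the mean comes from dcKO replicate 1. Htr2c and Kl stayed under 0.2 RPKM on average in every genotype.

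Of the 7 members other than Ttr, 6 passed the read filter and were tested, Kl being the exception. The filter asks for an average of 10 reads per embryo, or 30 over 3 embryos, which Otx2 (45), Folr1 (43) and Aqp1 (277) met in Ctrl alone. Clic6 (29 reads in Ctrl), Kcne2 (1) and Htr2c (0) passed through their reads in mutants, so they could only enter the test as genes that are higher there. The numbers of members called are therefore a description beside the background and not support for a common direction. Calls needed an adjusted p under 0.05 over all 16518 genes tested and a change larger than 1 on the log2 scale in either direction. In cKO against Ctrl, edgeR called 0 of the 6 as higher, where the same rule called 0.0182% of all genes tested. At an unadjusted p under 0.05, 4 of the 6 were higher (background 13.6%), and DESeq2 called these same 4, Otx2, Folr1, Kcne2 and Clic6 (background 5.05%), and none as lower (background 3.4%). Of these 4, Kcne2 and Clic6 are among the members that passed the filter through mutant reads. In dcKO against Ctrl, edgeR also called 0 of the 6 (background 0%). All 6 had an unadjusted p under 0.05, with 5 higher (background 15.3%) and Aqp1 lower (background 10.5%). DESeq2 called the same 4 as higher (background 4.79%) and Aqp1 as lower (background 3.45%, adjusted p of 0.0461). Both comparisons use the same 3 controls and are not independent of each other.

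Over both mutants together, edgeR called 1 of the 6 as higher, Clic6 (background 2.89%), and none as lower (background 2.09%). DESeq2 called 4 as higher (background 5.81%) and none as lower (background 4%). Of the 7 members other than Ttr, Otx2 and Clic6 had all 6 mutants above all 3 controls (background 10.9%), and Aqp1 had all 6 below them (background 8.86%). Without dcKO replicate 2 this count of non-overlapping members went from 3 to 5, with Folr1 and Kcne2 added, while the share of all tested genes without overlap rose to 18.7% above and 15.1% below the controls. In the same embryos edgeR called 5 of the 6 over both mutants, 4 higher and 1 lower. The background rose as well in that fit, to 7.31% higher and 3.53% lower. Without Ctrl replicate 3 edgeR called 0 of the 6 and 0 of all genes, and without both libraries it called 2 of the 6 (background 5.22% higher and 2.74% lower).

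**Figure D2:**
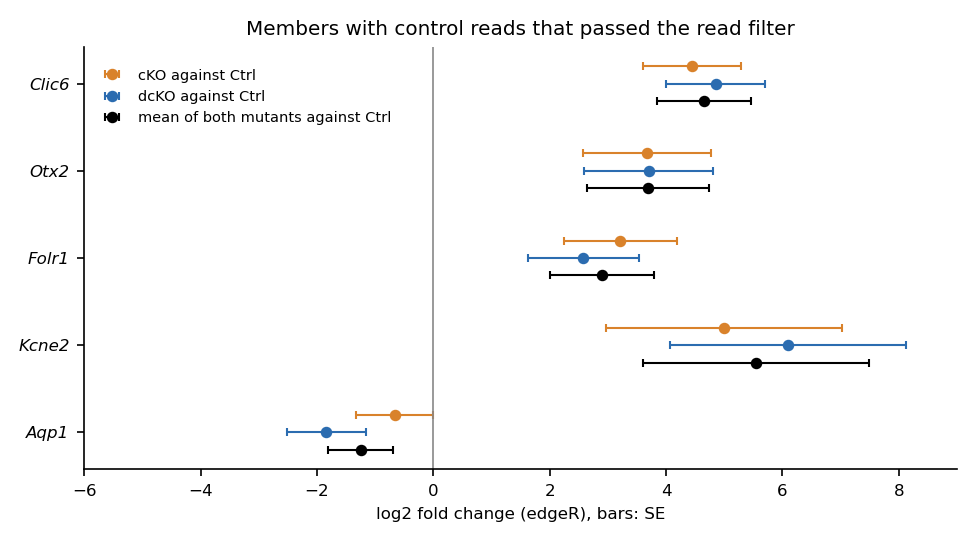
Log2 fold change by edgeR of the 5 tested members that have reads in controls, with the SE as bars, for cKO (orange), dcKO (blue) and the mean of both mutants (black) against the same 3 Ctrl embryos. Clic6, Otx2, Folr1 and Kcne2 lie to the right of 0 in each comparison and Aqp1 to the left, and the values for cKO and dcKO overlap within their SE for each gene.

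The 2 mutants were also compared directly, since they differ in Trp53. EdgeR called 0 of the 6 tested members between dcKO and cKO (background 0% higher and 0.0121% lower), none had an unadjusted p under 0.05 (background 1.85% higher and 2.4% lower), and DESeq2 called none (background 0.0303% higher and 0.316% lower). None of the 7 members other than Ttr separated the mutants without overlap (background 2.74% higher and 4.26% lower). The log2 fold change, dcKO minus cKO, was 0.03 ± 0.95 (SE) for Otx2, 0.41 ± 0.69 for Clic6, -0.64 ± 0.87 for Folr1 and 1.09 ± 1.41 for Kcne2. The largest in relation to its error was that of Aqp1, -1.17 ± 0.68 with an edgeR adjusted p of 0.930. With SE near or above 0.7, differences of up to several-fold between the mutants were not detectable for these genes. Without dcKO replicate 3, edgeR called 1.51% of all genes as higher and 5.65% as lower in dcKO than in cKO, and still 0 of the 6 members. Ttr overlapped as well, since dcKO replicate 1 was above every cKO embryo and dcKO replicate 2 below every one.

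The mutant embryos varied widely, and some members had the same embryos highest. Ttr, Otx2 and Clic6 had the same 3 highest embryos in the same order, dcKO replicate 1, cKO replicate 3 and cKO replicate 2. How many of all genes keep this order was not counted, so it is not read as a trait of the members. From the lowest to the highest mutant, Ttr spanned 16.4-fold, Otx2 11.5-fold and Clic6 8.61-fold in CPM. Counted within each embryo, Ttr had between 0.525 and 2.16 reads per read of Clic6, a span of 4.11-fold, and Otx2 had between 0.404 and 1.43, a span of 3.54-fold. Folr1 did not keep to this order. It had between 0.0510 and 1.86 reads per read of Clic6, a span of 36.4-fold, and its highest embryo was cKO replicate 3. The lowest Ttr per read of Clic6 was again that of dcKO replicate 2, in which Folr1 was at the control level and Kcne2 and Htr2c were absent.

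**Figure D3:**
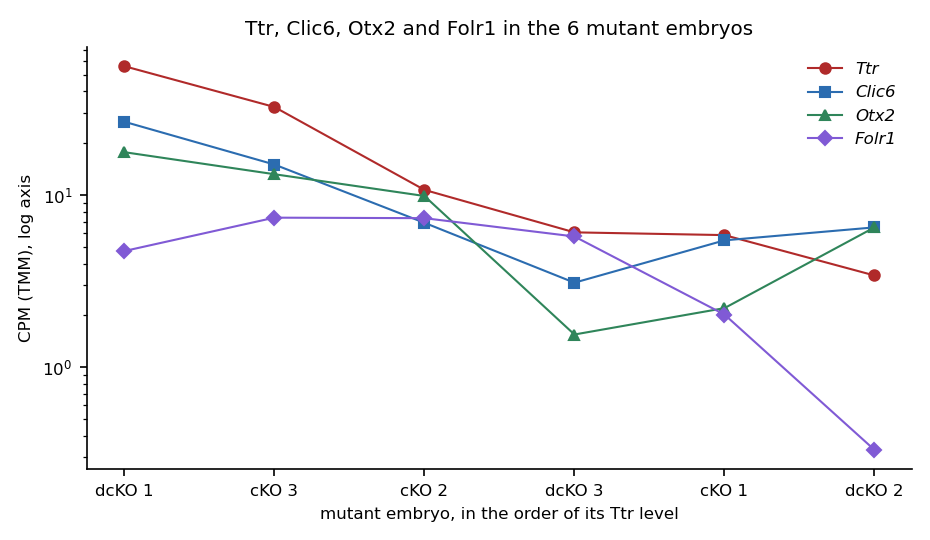
Levels of Ttr, Clic6, Otx2 and Folr1 in CPM (log axis) in the 6 mutant embryos, placed from the highest to the lowest Ttr. Clic6 and Otx2 fall along with Ttr over the first 3 embryos, and in dcKO replicate 2, at the right, Folr1 is at 0.331 CPM while Clic6 and Otx2 are both at 6.49 CPM.

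The 10 genes closest to Ttr across the 9 embryos were on none of the marker lists. Listed genes came soon after, with Clic6 at rank 16, Deup1 at rank 19 (r of 0.977) and Vat1l at rank 23 (0.976). By Pearson r of log2 CPM among 16517 genes, the 10 nearest were Pcmtd2, ENSMUSG00000120022.1, Gria4, Abcg5, Dgkk, Syt1, Bnip3, Bhlhe41, Cryzl1 and Srfbp1, with r from 0.9936 to 0.9799. Syt1 encodes a synaptic vesicle calcium sensor, Gria4 an AMPA receptor subunit and Bnip3 a mitochondrial autophagy receptor. Bnip3, for example, was at 19.6 to 23.2 CPM in Ctrl and 51.4 to 136 CPM in mutants. Among the members, Clic6 came nearest to Ttr with r of 0.978, at rank 16, followed by Otx2 (r of 0.836, rank 1294), Kcne2 (0.773, rank 1899), Folr1 (0.756, rank 2073) and Htr2c (0.723, rank 2385). Aqp1 had r of -0.40. Over the 6 mutants alone, the r with Ttr was 0.88 for both Clic6 and Htr2c, 0.83 for Kcne2, 0.73 for Otx2, 0.63 for Folr1 and 0.59 for Aqp1, so that the sign for Aqp1 differed with and without the controls. These values describe 9 or 6 libraries without a test, share the high dcKO replicate 1, and over 9 embryos include the 3 controls at 0 reads of Ttr. Ranks among all genes are not given for the values over the 6 mutants.

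Beyond the 8 members, 36 further genes of the choroid plexus epithelium were followed, of which 25 passed the read filter. Over both mutants, edgeR called 4 of the 25 as higher and none as lower, beside the 2.89% and 2.09% of all genes tested. Of the 25, 18 met the average of the filter in Ctrl alone, and 3 of the 4 called genes are among these, whereas Krt8, with 7 reads in Ctrl, was tested only because of its reads in mutants and could hardly have been called as lower. Their median log2 fold change was 0.44, against 0.06 for all genes tested. The 4 called genes were Krt8, a keratin of simple epithelia, Trpm3, a calcium-permeable channel that hosts a microRNA, Steap1, a membrane protein of the metalloreductase family, and Vat1l, which is also made by neurons. Trpm3 was at 0.2002 to 1.10 CPM in Ctrl and at 2.57 to 16.9 CPM in mutants, with a log2 fold change of 3.70 ± 0.81 (SE, edgeR adjusted p of 0.0310). Steap1 was at 0.994 to 1.40 CPM in Ctrl and at 2.70 to 8.36 CPM in mutants, with a log2 fold change of 2.24 ± 0.36 (adjusted p of 0.0288 by edgeR). Vat1l was at 20.1 to 21.7 CPM in Ctrl and at 39.2 to 80.2 CPM in mutants. In these 3 genes of the 25 every mutant was above every control (background 10.9%). Krt8 was at 0.0366 to 0.2002 CPM in Ctrl and at 2.24 to 5.84 CPM in 5 mutants, but at 0.178 CPM in dcKO replicate 2, the embryo in which Folr1 was also at the control level.

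Several genes of the mature epithelium had hardly any reads in any embryo. Cldn2, a tight junction protein of the choroid plexus, had 3 reads, all in cKO replicate 3. The potassium channel gene Kcnj13 had at most 7 reads in an embryo, and the prolactin receptor gene Prlr had 21 in dcKO replicate 1 and at most 2 elsewhere. These were chosen after their values were seen. The 3 most abundant genes of the list, Igfbp2, Slc31a1 and Slc12a2, which neural progenitors or other cells of the cortex express as well, had log2 fold changes of -0.57, 0.27 and -0.10 with edgeR adjusted p of 0.483, 0.319 and 0.873. Summed over the 36 genes, the level was 469 to 606 CPM in Ctrl and 461 to 708 CPM in mutants, so that the groups overlapped.

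Genes of the cortical hem and of choroid plexus fate, the region and the regulators from which this epithelium develops, were followed as well. Of 18 such genes 17 were tested. Over both mutants, edgeR called 4 as higher, Rspo2, Rspo3, Lmx1a and Id1, and 1 as lower, Bmp7 (background 2.89% and 2.09%), while DESeq2 called 9 as higher and 1 as lower (background 5.81% and 4%). The median log2 fold change of the 17 was 1.26, against 0.06 for all genes tested. Rspo2 and Rspo3 encode R-spondins, secreted proteins that raise Wnt signalling. Rspo2 was at 7.58, 12.46 and 0.623 CPM in Ctrl and at 24.2 to 119.4 CPM in mutants (log2 fold change 3.21 ± 0.87, edgeR adjusted p of 0.0476), and without Ctrl replicate 3, whose value is low, the log2 fold change was 2.66 ± 0.72 (edgeR adjusted p of 0.10004). Lmx1a, a homeodomain factor of the hem and the choroid plexus, was at 2.75 to 6.96 CPM in Ctrl and at 10.3 to 31.7 CPM in mutants (1.84 ± 0.47, edgeR adjusted p of 0.0398). Bmp7 was at 18.9 to 25.9 CPM in Ctrl and at 6.47 to 12.0 CPM in mutants (-1.24 ± 0.24, edgeR adjusted p of 0.0294). Bmp4, an inducer of choroid plexus fate that was singled out after its value was seen, had a log2 fold change of -0.46 with an edgeR adjusted p of 0.616.

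The hem genes and the members were also set side by side in each embryo. The summed level of the 18 hem and fate genes was 197, 238 and 147 CPM in Ctrl, 207, 456 and 582 CPM in cKO and 563, 265 and 307 CPM in dcKO. The sum of cKO replicate 1 thus lay within the Ctrl range. Gene by gene, 9 of the 18 were above every control in this embryo and 5 below, near the shares over all tested genes (39.9% above and 36.8% below), so nothing about the list is read from these counts. Rspo2, for one, was at 24.2 CPM against at most 12.46 in Ctrl, and the abundant Wnt8b at 51.7 CPM against 54.7 to 73.4. The summed level of the 7 members other than Ttr was 5.05 to 6.36 CPM in Ctrl and 12.4 to 59.0 CPM in mutants. The 3 embryos with the highest hem sums, cKO replicates 2 and 3 and dcKO replicate 1, were also the 3 with the most Ttr. Whether the share of hem tissue in the dissected cortices differed was not tested, and genotype and dissection cannot be told apart.

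Early choroid plexus epithelium and ependyma bear motile cilia, and the genes that start the multiciliated programme were examined for this reason. All 10 were tested, and over both mutants edgeR called 2 as higher (background 2.89%) and DESeq2 3 (background 5.81%), with none lower by either. The genes called by edgeR were Gmnc, the first regulator of this programme, and Deup1, which builds the structures from which many centrioles form. Gmnc was at 0.911, 1.70 and 0.2198 CPM in Ctrl and at 4.16 to 33.3 CPM in mutants, with a log2 fold change of 4.05 ± 0.86 (edgeR adjusted p of 0.0299). Deup1 was at 0.0828 to 0.256 CPM in Ctrl and at 1.45 to 4.81 CPM in mutants, with a log2 fold change of 3.98 ± 0.63 (edgeR adjusted p of 0.0288). Deup1 had 12 reads in the 3 Ctrl embryos together, under the 30 that the filter's average asks of them, so it was tested only because of its reads in mutants and its call is a description. Gmnc and the other 8 met that average in Ctrl alone. The highest embryo for both was again dcKO replicate 1. EdgeR called none of the remaining 8, and DESeq2 called 1 of them, Mcidas. Mcidas, a regulator that acts downstream of Gmnc, was at 0.293 to 1.501 CPM in Ctrl and at 1.86 to 10.8 CPM in mutants, all 6 above every control, with a log2 fold change of 2.43 ± 0.71 (edgeR adjusted p of 0.0572, DESeq2 adjusted p of 0.00257). Ccno, which is needed to amplify centrioles, had a log2 fold change of 1.83 ± 0.97 (edgeR adjusted p of 0.241), and both were singled out after their values were seen. The 3 most abundant of the 10, Rfx3, Trp73 and Rfx2, had log2 fold changes of 0.38, 0.02 and -0.50. Without Ctrl replicate 3 the log2 fold change of Gmnc was 3.56 ± 0.90 (edgeR adjusted p of 0.0946), and that of Deup1 was 4.49 ± 0.80 (adjusted p of 0.0889). In that fit edgeR called no gene of the whole table over both mutants, so that the calls of the choroid, hem and multiciliated lists were lost with it. The same held in each fit that left out Ctrl replicate 1, Ctrl replicate 2 or any single cKO embryo. For the fit without dcKO replicate 1 the list genes are not given here. Without Ctrl replicate 3 and dcKO replicate 2 together, Lmx1a (edgeR adjusted p of 0.0504), Id1 (0.0640) and Rspo3 (0.0826) missed the threshold and the other 8 of the 11 called genes of these lists passed it. Without dcKO replicate 2 or dcKO replicate 3 alone, all 11 were called.

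**Figure D4:**
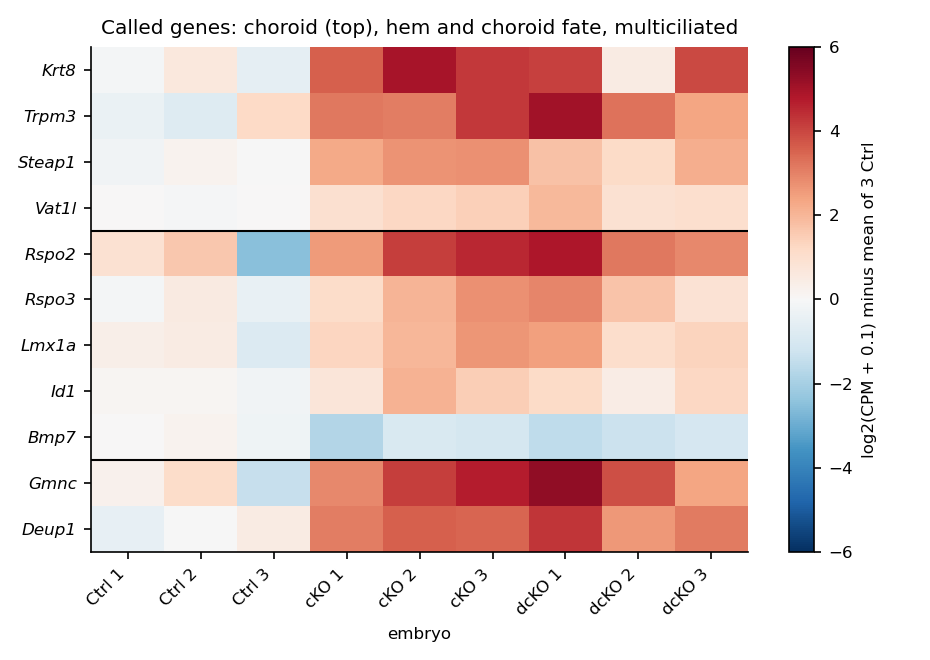
The 11 genes called over both mutants in the lists of other choroid plexus genes (top block), of hem and choroid fate (middle) and of the multiciliated programme (bottom), one column per embryo. Colour is log2(CPM + 0.1) minus the mean of the 3 Ctrl embryos. Mutant cells are red except for Bmp7, which is blue, and for Krt8 and Id1 in dcKO replicate 2, which are pale. Most Ctrl cells are pale, but Rspo2 and Gmnc are blue in Ctrl replicate 3 and reddish in Ctrl replicate 2.

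Ttr is also made by the liver, the visceral yolk sac and the retinal pigment epithelium, and markers of these and of other neighbouring tissues were read in the same libraries. Of 10 liver and yolk sac genes, Afp, Alb, Apoa4 and Fgb had no read in any embryo. Only Trf and Rbp4 had enough reads to be tested, with a median log2 fold change of 1.98, and edgeR called neither. The sum of that list, mostly Trf, was 12.2 to 16.2 CPM in Ctrl and 8.27 to 19.3 CPM in mutants. Of 9 genes of the retinal pigment epithelium, Tyr and Rpe65 had no read in any embryo. The sum of these 9, mostly Rlbp1 and Dct, which were also present in Ctrl, was 56.7 to 84.9 CPM in Ctrl and 25.6 to 51.9 CPM in mutants, opposite in direction to Ttr. Best1 of the same list (0 to 0.751 CPM in Ctrl, 0.0764 to 5.72 CPM in mutants) was not called, with an edgeR adjusted p of 0.177. Rbp4 of the liver list, which encodes the retinol-binding protein that Ttr carries and is made by other tissues too, had 0, 0 and 3 reads in Ctrl, 17, 11 and 27 in cKO and 26, 0 and 45 in dcKO. Its log2 fold change of 4.09 ± 1.57 (SE) had an edgeR adjusted p of 0.114, and DESeq2 called it as higher with an adjusted p of 0.0321, although with 3 reads in Ctrl it was tested only because of its reads in mutants. It was above the controls in 5 of 6 mutants.

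Markers of other regions and cells were read in the same way. Of 12 diencephalic and midbrain genes 4 were tested and none was called, En2 and Otp had no read, and their sum was 51.4 to 60.9 CPM in Ctrl and 52.9 to 77.6 CPM in mutants, highest in dcKO replicate 2. The sum of 10 meningeal genes was lower in every mutant than in any control, with 807 to 880 CPM in Ctrl, 461 to 696 CPM in cKO and 329 to 519 CPM in dcKO. Most of this sum came from the collagen genes Col3a1, Col1a2 and Col1a1, with log2 fold changes of -0.84, -1.01 and -1.61. These were the 3 of the 10 that were below all controls in every mutant (background 8.86%). EdgeR called none of the 10 and DESeq2 called Col1a1 and Col1a2 as lower (background 4%), while Lum (0.04), Foxc1 (0.17) and Dcn (-0.20) overlapped with Ctrl. The sum of 8 microglial genes was 44.9 to 56.2 CPM in Ctrl, 46.9 to 104 CPM in cKO and 17.8 to 39.8 CPM in dcKO. That of 10 cortical genes was 1564 to 2302 CPM in Ctrl and 1317 to 2163 CPM in mutants. EdgeR called no gene over both mutants in the endothelial, microglial, red blood cell or cortical lists. DESeq2 called 1 cortical gene as lower over both mutants, Emx1 (background 4%), and 2 in cKO, Emx1 and Lhx2 (background 3.4%). In dcKO it called 3 endothelial, 4 red blood cell and 3 meningeal genes as lower (background 3.45%), and in cKO 1 microglial gene, Fcrls, as higher (background 5.05%). The part of tissue composition in the members' values was not tested beyond these sums.

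**Figure D5:**
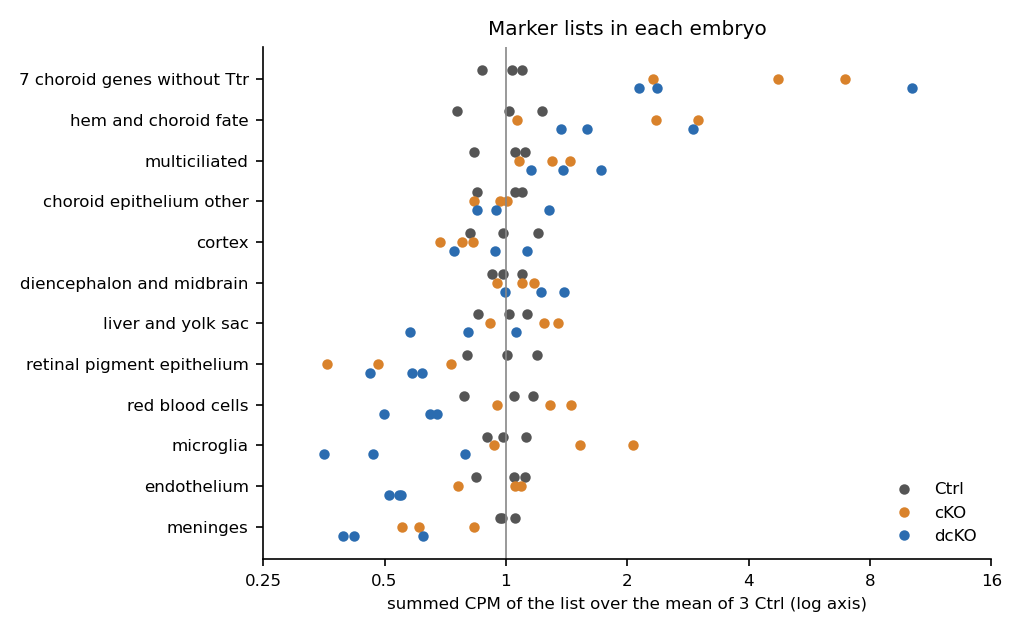
Summed CPM of 12 marker lists in each embryo, divided by the mean of the 3 Ctrl embryos (log axis), for Ctrl (grey), cKO (orange) and dcKO (blue). The 7 choroid genes other than Ttr lie to the right of all controls in each mutant and the summed hem genes in 5 of 6, while meninges and retinal pigment epithelium lie to the left of the controls.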

How the data were processed

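Cortices of 9 single embryos were compared, 3 per genotype. Per the labels and the study's methods, the authors trimmed the reads (Cutadapt), aligned them to mm39 (STAR) and assigned them to genes (featureCounts), and they deposited raw counts without normalization. Versions, annotation and strand setting are not given in the sources used here. Of 57010 identifiers, 52029 matched a symbol. Levels are CPM with TMM factors, computed here from the counts. Genes with at least 90 reads summed over the 9 embryos (16518) were tested with edgeR 4.0.16 (quasi-likelihood test, one fit of all embryos, Benjamini-Hochberg adjustment), with calls at an adjusted p under 0.05 and a log2 fold change beyond 1 in either direction. DESeq2 1.42.0 and limma 3.58.1 voom in R 4.3.3 were alternatives. Exact two-sided permutation tests used log2 CPM (prior count 0.5). Replicates differed by far more than sampling noise. By rule, the text names the members, the called genes of each list or otherwise its 3 most abundant, the 10 genes nearest to Ttr, Cnot3 and Trp53. All other genes named with values, such as Gsx2, Nkx2-1, Emx1, Xist, Dynlrb2, Otx2os1, Best1, Wnt8b, Mcidas and Ccno, and the most abundant genes of lists that have called genes, are outside this rule and were chosen after their values were seen. Members and lists were chosen with earlier results of these data known. Each label names a separate embryo. The procedure was checked on simulated data, where a pass was required only at a fixed low spread between replicates. That check does not cover the spread between these embryos.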

Additional observations from a re-analysis of the deposited data

How the results depend on the processing

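The number of members called by edgeR (0 in cKO, 0 in dcKO, 1 over both mutants, of 6 tested) depended on the test and on single embryos, while the signs against Ctrl did not. Clic6 (29 reads in Ctrl), Kcne2 (1) and Htr2c (0) passed the filter through their reads in mutants. Their signs could thus hardly turn and are no result. DESeq2 called 4 in cKO, 5 in dcKO and 4 over both, and limma voom with quality weights 3, 5 and 4. Of all genes, voom called 8.88%, 9.99% and 9.37% as higher in these comparisons and 7.03%, 13.1% and 11.1% as lower. Without a filter on low counts the numbers were 3, 2 and 5 (1.44%, 1.16% and 1.96% of all genes higher and 1.59%, 1.41% and 2.46% lower). Upper-quartile factors gave 2 over both mutants (3.52% of all genes higher and 1.62% lower). A fit of the 6 embryos compared gave 3 in cKO (8.3% of all genes higher and 5.94% lower, against 0.0182% and 0% with all embryos). Leaving out 1 embryo at a time gave 0 to 3 in cKO, 0 to 4 in dcKO and 0 to 5 over both. The share of all genes called moved as well. In cKO it was 0% to 5.44% higher and 0% to 5.01% lower. In dcKO it was 0% to 6.92% higher and 0% to 14.3% lower, and over both mutants 0% to 7.31% and 0% to 9.98%. Each fit without a Ctrl or a cKO embryo called 0 members and 0 genes in all over both mutants, and the highest count came without dcKO replicate 2. Members beyond every control numbered 3 to 5 where 1 embryo was left out, beside 20.1% to 33.8% of all tested genes (19.8% with all embryos), and 2 with upper-quartile factors (19.7%). Leaving out Ctrl replicate 3 and dcKO replicate 2 together, chosen after seeing the data, gave 1, 2 and 2 (2.82%, 3.96% and 5.22% of all genes higher and 1.43%, 1.41% and 2.74% lower). A filter of more than 10 reads in every embryo left none of the 8 members, so it gave no value. Over all genes, edgeR called 478 as higher and 346 as lower over both mutants, DESeq2 958 and 659, and limma voom 1547 and 1828. Between dcKO and cKO no member was called under any setting, and small differences changed sign. Otx2 (0.03) became -3.05e-04 with upper-quartile factors, -0.46 without cKO replicate 1 and -1.12 without dcKO replicate 1, within a range of -1.12 to 0.48 over the embryos left out. Clic6 (0.41) became -0.97 without dcKO replicate 1, within a range of -0.97 to 0.93, and Folr1 (-0.64) became 0.034 with limma voom. The differences of Kcne2 (1.09) and Htr2c (1.43) rest on dcKO replicate 1 too. In dcKO replicates 2 and 3 each gene was at 0 and 0.204 CPM. In cKO Kcne2 was at 0.404 to 0.821 CPM and Htr2c at 0 to 0.808 CPM. With the replicate number as a block, 0 members and 0 of all genes were called over both mutants (Clic6 4.57, adjusted p of 0.0857), and the differences between dcKO and cKO became -0.78 for Otx2, -0.59 for Kcne2 and -1.06 for Htr2c. Replicate numbers are not stated to mark a shared litter or batch, and same-numbered embryos did not deviate together (mean r of -0.10 over 9 pairs, against 0.05 for 18 pairs with different numbers). The 3 pairs that share a code number had r of 0.12, 0.00 and -0.28. Reads set the limit for Kl (73), Kcne2 (188) and Htr2c (197).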
